A study of Junonia coenia with 20 samples.

Results

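The larval wing disc and the pupal wing before pigment were compared by RNA sequencing in Junonia coenia, the common buckeye, a nymphalid butterfly whose hind wing was sampled. The comparison comprised every pre-pigment pupal wing and 5th instar larval disc library with values, 8 of the 16 libraries with values in a series of 20 described samples. The 4 pre-pigment libraries were Linea replicates 1 and 2 and Rosa replicates 1 and 2. The 4 larval libraries were Linea replicates 2 and 3 and Rosa replicates 2 and 3. Larval replicate 1 of each morph was not analysed here. Linea and Rosa are 2 seasonal colour morphs of the species, and no strain or genetic change is named in the labels. All animals came from a single North Carolina population reared on artificial diet, under either cool short days (21°C, 8 h of light) or warm long days (27°C, 16 h of light), per the labels' protocols. The labels do not tie a morph to a regime, so morph and rearing cannot be told apart here. The labels also do not say what a replicate is (a separate animal, pooled animals or the same RNA prepared again). The p-values below therefore reflect library-to-library spread alone, and that spread may be technical.

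In the larva the hind wing is an imaginal disc, an epithelial sac that grows inside the body and in which patterning genes lay down veins, margins and eyespot centres. At pupation the disc everts and expands into the pupal wing. There, under ecdysteroid hormones, the epithelium forms scale-building and socket cells and secretes cuticle, and pigment is deposited in the scales only later. The pre-pigment stage thus lies after the change of tissue form and before ommochrome deposition, the synthesis of the yellow to red wing pigments.

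The transcripts carry identifiers of the authors' de novo assembly, and the files used here pair them with no gene names or sequences. The tissue labels could therefore not be checked against marker genes, and nothing is said of what a transcript encodes. Levels are given as scaled RPKM, the deposited length- and library-normalized read number divided by a factor per library. The factor equalizes the median ratio over transcripts at 1 RPKM or more in all 16 libraries. In bulk tissue, fewer cells of a type and less RNA per cell cannot be told apart. The number of reads per library is unknown. Summed RPKM ranged from 499806 to 613090 in pre-pigment libraries and from 727875 to 832300 in larval libraries. Rosa pre-pigment replicate 1 had lower correlations with the pre-pigment libraries numbered 2 than with Linea pre-pigment replicate 1. It also had the fewest detected transcripts among pre-pigment libraries, and a set of transcripts differed between replicates 1 and 2 in both morphs. Results are therefore also given without the pre-pigment libraries numbered 1.

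Wing transcript levels differed widely between the stages. Of 15453 transcripts tested, 1884 (12.2%) were higher and 1685 (10.9%) lower in pre-pigment wings than in larval discs, with morph as a term in the fit (limma, Benjamini-Hochberg adjusted p under 0.05). Together they made up 23.1% of the transcripts tested. With replicate number as a further term in the fit, 1044 were higher and 362 lower. Only number 2 occurs at both stages, so the size of that step rests on the libraries numbered 2 alone. The values of all 4 pre-pigment libraries lay above those of all 4 larval libraries for 2063 transcripts (13.4%), and below them for 2323 (15%). Of these, 1686 were called higher and 1495 lower.

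The larger changes were mostly rises. The median log2 change was 2.57 over the 1884 risers and -1.93 over the 1685 fallers, on the log2(scaled RPKM + 1) scale and beside a median of -0.16 over all transcripts tested. On the same scale at least an 8-fold change was seen in 723 risers and 201 fallers, and at least a 64-fold change in 54 risers and 4 fallers. This order held with quantile normalization (735 risers and 232 fallers at 8-fold) but turned round on RPKM as deposited (363 and 1176). With a pseudocount of 0.1 there were 1098 risers and 474 fallers at 8-fold, and without Rosa pre-pigment replicate 2 there were 783 and 363. With a test against a 2-fold minimum in place of 0, 774 transcripts were higher and 218 lower, so that 78% of calls were higher, against 52.8% in the test against 0. The typical riser had a mean of 30.5 scaled RPKM in pre-pigment wings and 2.92 in larval discs, and the typical faller 5.73 in pre-pigment wings and 27.5 in larval discs (medians over transcripts). The mean was under 1 scaled RPKM in larval discs for 519 risers (27.5%) and in pre-pigment wings for 314 fallers (18.6%).

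**Figure D1:**
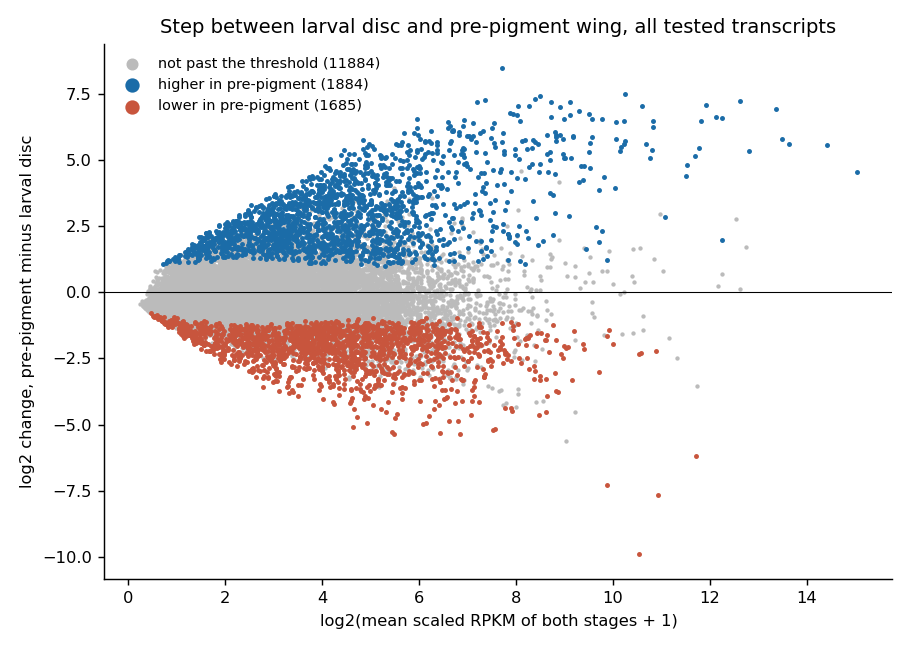
Log2 change (pre-pigment minus larval disc, vertical axis) against mean level of both stages (horizontal axis, log2 scale) for the 15453 transcripts tested; blue points were higher in pre-pigment wings (1884), red points lower (1685) and grey points not past the threshold. More blue than red points lie beyond a 64-fold change (54 and 4), but the largest fall (-9.91) exceeds the largest rise (8.47).

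Abundant transcripts were called more often than scarce ones. The 1 added before taking logs understates changes of low transcripts, so these rates do not show that abundant transcripts changed more. With transcripts divided into 4 bins of equal number by their mean log2(scaled RPKM + 1) over the 8 libraries, 13% were called in the lowest bin (median of mean levels 1.69 scaled RPKM), 20.3% and 24.7% in the middle bins and 34.4% in the highest (median of mean levels 41.3 scaled RPKM). Risers outnumbered fallers in the middle bins, with 478 risers and 306 fallers in the lower of them and 524 risers and 430 fallers in the upper. In the outer bins fallers were slightly more numerous, with 243 risers and 259 fallers in the lowest and 639 risers and 690 fallers in the highest.

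The change of JC_0066288 was the most distinct rise relative to its spread. It had 261 and 736 scaled RPKM in Linea and 355 and 323 in Rosa pre-pigment wings (replicates 1 and 2), against 0.000154 and 0.377 in Linea and 0.015 and 2.04e-05 in Rosa larval discs (replicates 2 and 3). It was thus near 0 in every larval disc. Like all named transcripts, it was chosen among those whose stages did not overlap. The log2 change was 8.47 ± 0.39 (SE, n = 4 each, limma adjusted p = 1e-04). Its level was lower again in the ommochrome stages, between 14.4 and 65 scaled RPKM at early and between 0.145 and 28.6 at late ommochrome.

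JC_0097712, the second riser by this measure, stayed high. It had 218 and 239 scaled RPKM in Linea and 238 and 465 in Rosa pre-pigment wings, against 0.892 and 1.31 in Linea and 1.31 and 0.183 in Rosa larval discs. Its log2 change was 7.22 ± 0.4 (SE, n = 4 each, limma adjusted p = 1e-04). All 8 later libraries were above all 4 larval ones, with 64 to 426 scaled RPKM at early and 80.4 to 1029 at late ommochrome.

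The most distinct fall was that of JC_0062905, the 12th most abundant transcript of larval discs. It had 0.183 and 3.14 scaled RPKM in Linea and 0.492 and 3.06 in Rosa pre-pigment wings, against 7092 and 1356 in Linea and 1151 and 2309 in Rosa larval discs. The log2 change was -9.91 ± 0.68 (SE, n = 4 each, limma adjusted p = 1e-04). Within pre-pigment wings the libraries numbered 1 were the lower ones in both morphs. At the ommochrome stages it remained between 0.192 and 23.5 scaled RPKM.

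JC_0016746 was listed at 0 in both pre-pigment libraries numbered 1, and at 0.788 in Linea and 0.457 in Rosa replicate 2. Its larval levels were 76.6 and 59.1 scaled RPKM in Linea and 28.6 and 24.3 in Rosa. It fell by 5.09 on the log2 scale (SE 0.43, n = 4 each, limma adjusted p = 0.00022). At both later stages it was at 1.72 scaled RPKM or less in every library.

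**Figure D2:**
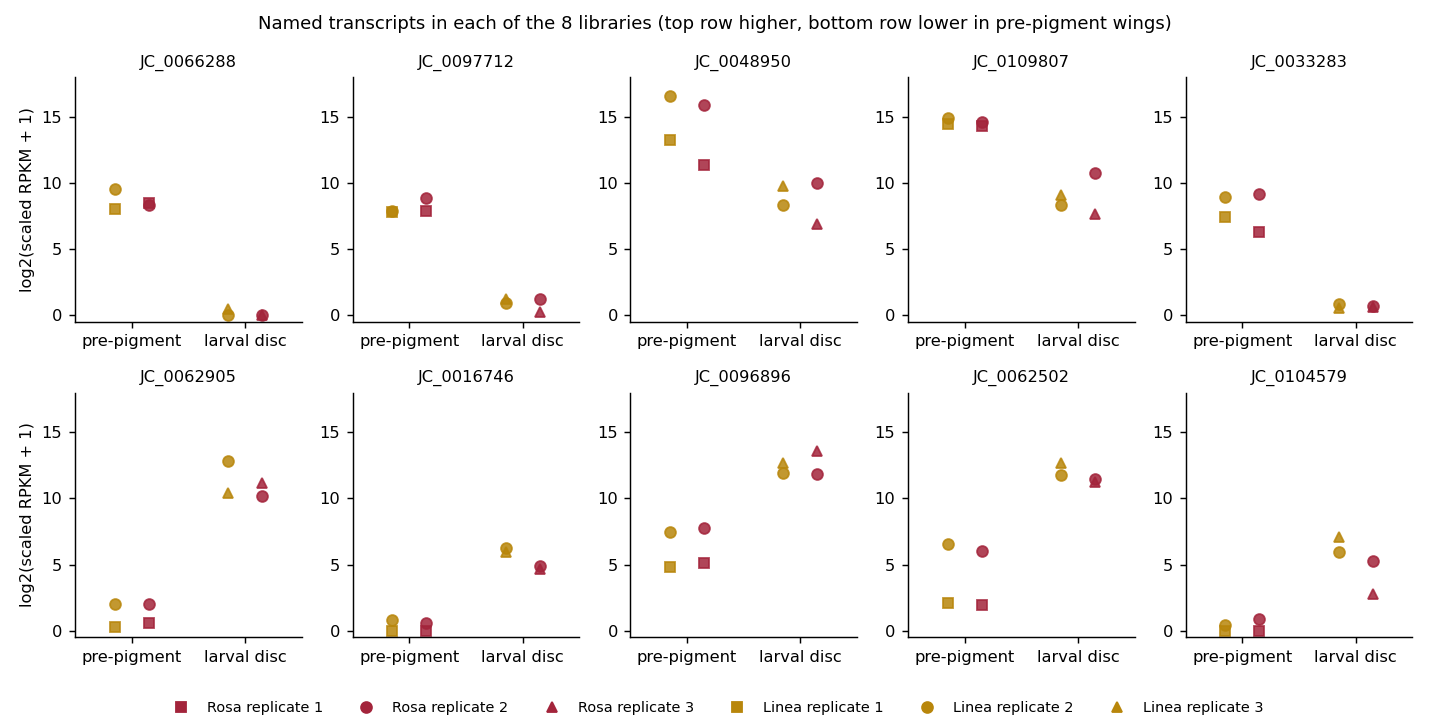
Level of the 10 named transcripts in each of the 8 libraries, as log2(scaled RPKM + 1) on the vertical axis, with pre-pigment wings left of larval discs; colour gives the morph and marker shape the replicate number, and each point is a library. The naming rules admitted only transcripts whose stages do not overlap. In JC_0048950, JC_0096896 and JC_0062502 the squares (pre-pigment replicate 1) lie well below the circles (replicate 2) in both morphs.

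Expression was concentrated in far fewer transcripts in pre-pigment wings than in larval discs. The number of most abundant transcripts that together held 50% of the summed RPKM was 41 and 41 in Linea and 57 and 64 in Rosa pre-pigment wings, against 534 and 379 in Linea and 517 and 344 in Rosa larval discs. The stage means were 50.75 ± 11.6 transcripts in pre-pigment wings and 443.5 ± 96 in larval discs (SD, n = 4 each). At the ommochrome stages, which were not in the test, the number ranged from 46 to 263 at early and from 48 to 191 at late. All pre-pigment libraries lay below all larval libraries (exact two-sided permutation test, p = 0.02857, the smallest that 4 against 4 allow). Adjusted over the 3 library measures examined, the permutation p was 0.08571, which misses 0.05. The most abundant transcript of a library alone held between 7.87% and 17.9% of the sum in pre-pigment wings and between 1.55% and 2.72% in larval discs. The other library measures had larger p-values. Transcripts at 1 scaled RPKM or more numbered 12717 ± 669.8 in pre-pigment wings and 12874 ± 367 in larval discs (SD, n = 4 each, exact permutation p = 0.8286, adjusted 0.8286). The SD of log2 levels over transcripts was 2.053 ± 0.0508 in pre-pigment wings and 1.984 ± 0.0776 in larval discs (SD, n = 4 each, exact permutation p = 0.2, adjusted 0.3).

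**Figure D3:**
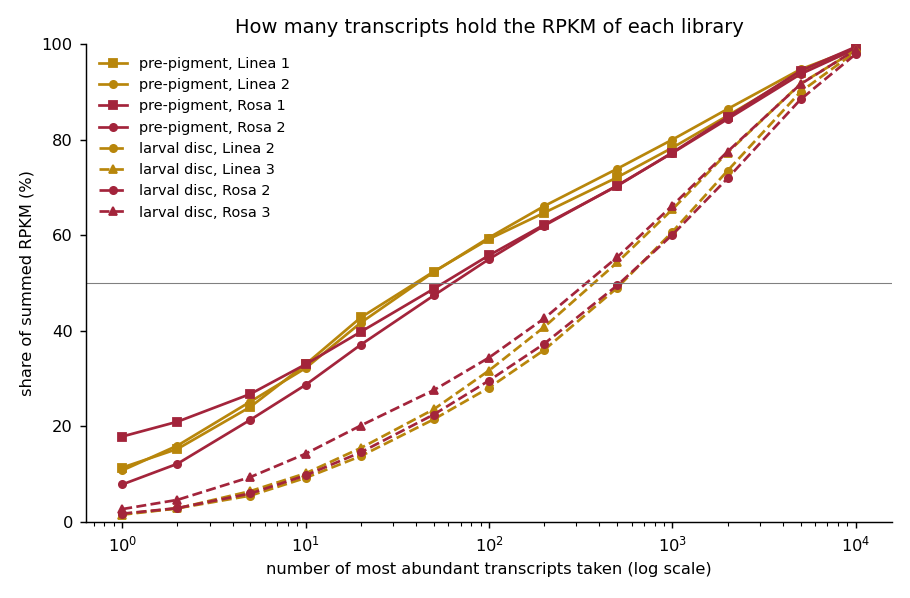
Share of each library's summed RPKM (vertical axis, percent) held by its most abundant transcripts (horizontal axis, number taken, log scale); solid lines are the 4 pre-pigment libraries and dashed lines the 4 larval libraries. The solid lines cross 50% between 41 and 64 transcripts and the dashed lines between 344 and 534.

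The risers accounted for most of the pre-pigment RPKM. They held between 58.1% and 63.8% of the summed RPKM of a pre-pigment library and between 4.6% and 8.59% of a larval one. Fallers held between 3.09% and 4.14% in pre-pigment wings and between 23.9% and 36% in larval discs. These shares describe lists chosen on the same 8 libraries. In libraries that took no part in the choice, risers held 42.3% to 55.8% at early and 45.1% to 55.3% at late ommochrome, and fallers 3.91% to 7.35% and 5.01% to 6.61%.

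The lists of most abundant transcripts overlapped little. Of the 10 with the highest mean in each stage, 2 were shared, and of the 100 highest 28 were shared. Of the 100 most abundant pre-pigment transcripts, 71 were risers and 0 fallers, and of the 100 most abundant larval transcripts, 48 were fallers and 6 risers. Over all transcripts tested 12.2% were risers and 10.9% fallers, and in the bin of highest level 16.5% and 17.9%. Of the 10 most abundant, 8 were risers and 0 fallers in pre-pigment wings, and 2 were fallers and 1 a riser in larval discs. A transcript's place among the most abundant of its stage uses the same values as the call.

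JC_0048950 had the largest gain in level. It had 9916 and 98631 scaled RPKM in Linea and 2685 and 61301 in Rosa pre-pigment wings, against 322 and 853 in Linea and 1006 and 116 in Rosa larval discs. The libraries numbered 1 were at a fraction of those numbered 2 in both morphs. That every pre-pigment library was above every larval one was required by the naming rule. The log2 change was 5.56 ± 1.19 (SE, n = 4 each, limma adjusted p = 0.013). It was 7.52 without the pre-pigment libraries numbered 1 (limma adjusted p = 0.0052). It was 4.72 without Rosa pre-pigment replicate 2 and 6.53 without Rosa pre-pigment replicate 1. At late ommochrome JC_0048950 was again lower in replicate 1 than in replicate 2, with 7501 and 87531 scaled RPKM in Linea and 7593 and 50301 in Rosa. At early ommochrome it had 32824 and 32115 in Linea (replicates 1 and 2) and 36753 and 74256 in Rosa (replicates 1 and 3). What replicate number stands for across stages was not tested.

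JC_0109807 followed it, with more even levels. It had 22106 and 30795 scaled RPKM in Linea and 20076 and 25509 in Rosa pre-pigment wings, against 327 and 535 in Linea and 1694 and 204 in Rosa larval discs. Between 2.9% and 3.37% of the summed RPKM of each pre-pigment library belonged to this transcript, against 0.0443% to 0.421% in larval discs. The log2 change was 5.61 ± 0.7 (SE, n = 4 each, limma adjusted p = 0.001), or 5.07 without Rosa larva replicate 3 and 6.29 without Rosa larva replicate 2.

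The largest loss in level was that of JC_0096896, the most abundant transcript of larval discs by mean. It had 27.8 and 179 scaled RPKM in Linea and 34.2 and 216 in Rosa pre-pigment wings, against 3791 and 6447 in Linea and 3736 and 12544 in Rosa larval discs. It fell by 6.2 on the log2 scale (SE 0.78, n = 4 each, limma adjusted p = 0.0011), and fell by 4.88 without the pre-pigment libraries numbered 1. It ranged more widely later, from 96.6 to 1965 scaled RPKM at early and from 7.5 to 901 at late ommochrome, still below every larval disc.

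JC_0062502 was likewise lower in pre-pigment replicate 1 than in replicate 2 of both morphs. It had 3.28 and 92.4 scaled RPKM in Linea and 2.9 and 64.2 in Rosa pre-pigment wings, against 3584 and 6513 in Linea and 2903 and 2415 in Rosa larval discs. Its log2 change was -7.65 ± 1.08 (SE, n = 4 each, limma adjusted p = 0.0019), and -5.52 without the libraries numbered 1. Leaving out Linea pre-pigment replicate 1 gave -6.7, and leaving out Rosa pre-pigment replicate 2 gave -8.51. At late ommochrome JC_0062502 had 9.29 and 46.3 scaled RPKM in Linea and 7.62 and 169 in Rosa (replicates 1 and 2). At early ommochrome it had 33.8 and 93.6 in Linea (replicates 1 and 2) and 72.1 and 104 in Rosa (replicates 1 and 3).

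Between larval disc and pre-pigment wing, transcripts low at either stage and present at the other were mostly pupal. Under 1 scaled RPKM in all 4 larval discs and at 5 or more in all 4 pre-pigment wings were 82 transcripts (0.505% of 16251), and 15 (0.0923%) showed the opposite. The 82 had pre-pigment means from 5.86 to 418 scaled RPKM with a median of 24.3. The 15 had larval means from 7.26 to 58.8 with a median of 13.5. Leaving out libraries relaxes the rule, so both counts could then only stay or rise. The pupal count was 145 without Rosa larva replicate 2, and 154 without the pre-pigment libraries numbered 1. The larval count was 25, 27 and 28 without Linea pre-pigment replicate 2, Rosa pre-pigment replicate 2 and Rosa larva replicate 3, and 25 without the pre-pigment libraries numbered 1. On RPKM as deposited the order was the other way, with 29 pupal and 62 larval transcripts.

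Later stages took no part in choosing these transcripts, but a choice on pre-pigment levels favours lower levels of the 82 later. Of the 82, 42 were at 5 scaled RPKM or more in all 4 early and 35 in all 4 late ommochrome libraries, and 30 in all 8. Only 4 were under 1 in every early and 5 in every late library. Their median level per library was 17.7 to 24.6 scaled RPKM at pre-pigment, 8.71 to 10.8 at early and 6.45 to 9.09 at late ommochrome. Of the 15 larval transcripts, 13 stayed under 5 scaled RPKM in all 8 ommochrome libraries. Their median per library there was at most 0.693, against 8.34 to 16.7 in larval discs.

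**Figure D4:**
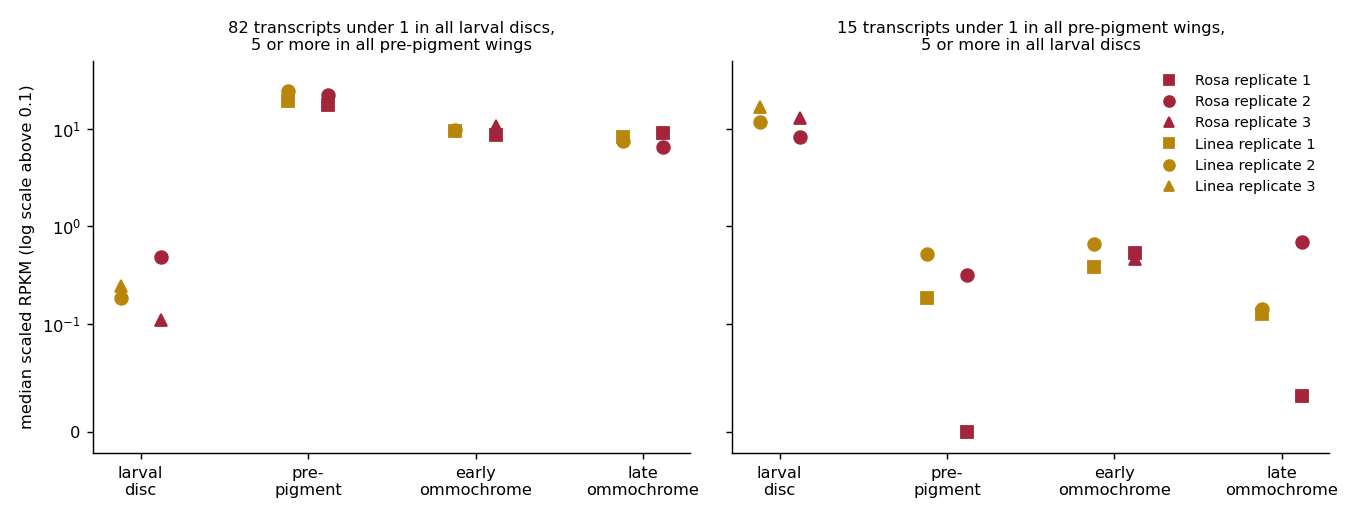
Median scaled RPKM per library (vertical axis, log scale above 0.1) of the 82 transcripts under 1 in all larval discs and at 5 or more in all pre-pigment wings (left) and of the 15 with the opposite pattern (right), by stage in developmental order; each point is a library. The left set stands between 6.45 and 10.8 at both ommochrome stages, below the pre-pigment level on which it was chosen. The right set stays under 1 in every pupal library, which at pre-pigment was required by its choice.

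Of the 82, JC_0066288, described above, had the highest mean, followed by JC_0033283. JC_0033283 had 167 and 491 scaled RPKM in Linea and 75.1 and 564 in Rosa pre-pigment wings, against 0.77 and 0.487 in Linea and 0.627 and 0.513 in Rosa larval discs. The larval values lay close together and the pupal ones were lower in the libraries numbered 1. Its log2 change was 7.26 ± 0.63 (SE, n = 4 each, limma adjusted p = 0.00023). It was at 8.22 to 21.9 scaled RPKM at early and 2.3 to 20.4 at late ommochrome, so that it, like JC_0066288, was highest at pre-pigment. Both were named for their high pre-pigment means, a choice that favours lower levels later.

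Of the 15, JC_0104579 had the highest mean, followed by JC_0016746. JC_0104579 was listed at 0 in both pre-pigment libraries numbered 1 and had 0.311 and 0.855 scaled RPKM in Linea and Rosa replicate 2. Larval discs had 59.7 and 132 scaled RPKM in Linea and 37.6 and 5.67 in Rosa, where replicate 3 was the lowest. Its log2 change was -4.93 ± 0.76 (SE, n = 4 each, limma adjusted p = 0.0029), or -5.71 without Rosa larva replicate 3 and -4.43 without Linea larva replicate 3.

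The step was also fitted within each morph, and the morphs share no library. In Rosa 706 transcripts were higher and 228 lower in pre-pigment wings (934, 6.04% of those tested), and in Linea 908 were higher and 529 lower (1437, 9.3%; limma, adjusted p under 0.05). A difference between the steps was tested directly, and 0 transcripts (0%) passed. In that limma test 666 transcripts had an unadjusted p under 0.05, with 772.7 expected if no step differed, and adjusted p-values started at 0.552. The absence of calls does not show equal steps, because the difference had a median standard error of 0.96 log2 units, against 0.48 for the step over both morphs. The count was also 0 with each library left out in turn and under each alternative in which it was computed, which excludes the fits without a morph term and on the libraries numbered 2 alone.

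JC_0066288 changed by 8.4 in Rosa and 8.55 in Linea, a difference of -0.15 ± 0.83 log2 units (SE, limma adjusted p = 1). JC_0104579 had the widest gap of the named transcripts, with -3.56 in Rosa and -6.29 in Linea, a difference of 2.74 ± 1.29 (SE, limma adjusted p = 1). Neither difference passed the threshold.

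**Figure D5:**
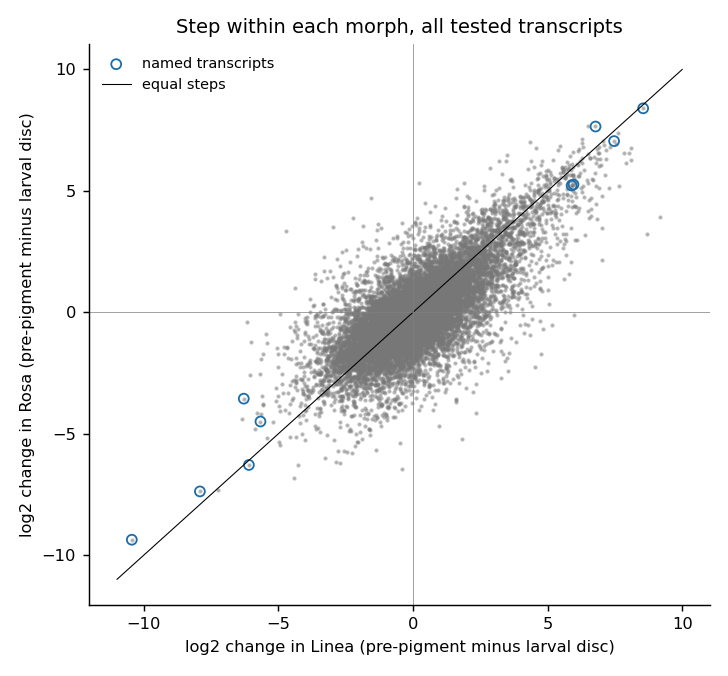
Log2 change from larval disc to pre-pigment wing in Rosa (vertical axis) and in Linea (horizontal axis) for the 15453 transcripts tested; the line marks equal steps and circles mark the 10 named transcripts. Of the circled transcripts JC_0104579 lies furthest from the line (-3.56 in Rosa and -6.29 in Linea), and 0 transcripts passed the test of a difference between the morphs.

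Counts within a morph rest on single libraries. The Linea count of 1437 was 0 without Linea pre-pigment replicate 2 or Linea larva replicate 2, 143 without Linea pre-pigment replicate 1 and 163 without Linea larva replicate 3. The Rosa count of 934 was 311 and 418 without Rosa larva replicates 3 and 2, and 555 without Rosa pre-pigment replicate 1. Leaving out Linea larva replicate 2 or 3, which changes the shared spread and the set of transcripts tested, gave 428 and 411 in Rosa. A lone library is assumed in these fits to vary like the other groups.

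Among pre-pigment wings, Rosa replicate 1 had the lowest correlations, those with the libraries numbered 2. Its log2 levels had a correlation of 0.68 with Rosa replicate 2, 0.68 with Linea replicate 2 and 0.81 with Linea replicate 1 (Pearson, across 15453 transcripts, which are not independent). The other 3 pre-pigment libraries had correlations of 0.78 to 0.83 with each other, including 0.81 between Linea replicates 1 and 2. Between pre-pigment and larval libraries it ranged from 0.43 to 0.61, and between larval libraries from 0.73 to 0.89. Rosa pre-pigment replicate 1 also had the fewest transcripts at 1 scaled RPKM or more, with 11713 against 13027 to 13071 in the other 3 pre-pigment libraries.

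In both morphs 501 transcripts were at least 4-fold lower, and 131 at least 4-fold higher, in replicate 1 than in replicate 2 (on the log2(scaled RPKM + 1) scale), and 110 differed as much in opposite directions. The 501 had medians of 2.29 and 0.112 scaled RPKM in Linea and Rosa pre-pigment replicate 1 and 25.3 and 20.6 in replicate 2. In the libraries not used to choose them, the median was 8.6 to 10.1 in larval discs and 8.16 to 14.7 at the ommochrome stages. Replicate 1 was below, and replicate 2 above, the medians of all larval and ommochrome libraries, a placement that the choice of these transcripts favours. Few of the 501, which were chosen for a wide spread between pre-pigment libraries, were called, 21 higher and 38 lower in pre-pigment wings (11.8%, against 23.1% of all tested). The 131 had medians of 20.3 and 19.5 in replicate 1 and 1.5 and 1.27 in replicate 2, with 1.48 to 3.6 in larval discs and 4.46 to 15.2 at the ommochrome stages. The part of these libraries in the results was not tested beyond leaving them out.

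Leaving out both pre-pigment libraries numbered 1 gave 1520 transcripts higher and 728 lower (limma, adjusted p under 0.05). Of the 1884 risers 1213 (64.4%) were called again and of the 1685 fallers 656 (38.9%), and 0 were called in the other direction. All 10 named transcripts, chosen on the same libraries as extreme cases, kept their call. No larval library numbered 1 was analysed here, so replicate number and stage partly coincide. With just the 4 libraries numbered 2, 778 transcripts were higher and 199 lower. The number of fallers also changed more than 1.5-fold when certain single libraries were left out, with 753 without Linea larva replicate 2, 815 without Linea larva replicate 3, 841 without Linea pre-pigment replicate 1, 1107 without Linea pre-pigment replicate 2 and 988 without Rosa larva replicate 3. The number of risers was 1174 without Linea larva replicate 2. Risers outnumbered fallers in each of these fits, but without Rosa pre-pigment replicate 2 there were 1928 risers and 1929 fallers.

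The balance between risers and fallers depended on the libraries fitted, as above, and on the scaling. All 16 libraries in the fit gave 2107 higher and 2274 lower. On RPKM as deposited, where the median transcript was shifted by -1.127 log2 units, 1046 transcripts were higher and 6452 lower, so that 14% of calls were higher. Quantile normalization gave 1809 higher and 1800 lower. The 10 named transcripts, chosen on the same libraries as extreme cases, each kept direction and call under every scaling. Changes are therefore stated relative to the 7126 transcripts used for scaling, and the median log2 change over all transcripts tested was -0.16.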

How the data were processed

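Per the submitters' processing notes, the authors used Bowtie 0.12.7 for alignment, and they deposited RPKM for 16251 assembled transcripts. How transcripts were assembled, filtered and quantified is not stated in the files or labels used here. Poly(A) RNA was amplified to cDNA, sheared to 300 bp and read as pairs of 75 or 100 bp, per the labels' protocols, and which library had which read length is not stated. RPKM keeps no read count, and 1357 values lay above 0 and below 0.001 RPKM, so depth is unknown and no interval or count test was used.

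Each of the 16 columns was divided by its median ratio to the row geometric mean, taken over 7126 transcripts that reached 1 RPKM in all of them. Tests covered the 15453 transcripts that reached 1 RPKM in 2 or more of the 8 compared libraries. limma 3.58.1 in R 4.3.3 was fitted to log2(scaled RPKM + 1), which understates changes of low transcripts, with stage and morph as terms (5 residual degrees of freedom) or 4 group means (4 degrees of freedom), a variance trend on intensity and p-values adjusted over all tested transcripts by the Benjamini-Hochberg method. Single values per library were compared by exact permutation. The fit was checked on simulated data, in which most of the smaller planted changes were not called. No pair of the 8 libraries held identical values.

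Transcripts were named by rule, at most 2 per direction and result: the largest moderated t past the threshold without overlap and with a mean of 5 or more in the higher stage; the largest difference of mean level past the threshold without overlap; and the highest mean among those under 1 at the other stage. Lists of wing patterning, scale, ecdysone, cuticle, cell cycle and other-cell genes could not be matched to identifiers. The comparison, lists and settings were chosen with earlier results of these data known.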

Additional observations from a re-analysis of the deposited data

Results flagged for a closer look

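Of 26 groups of 4 libraries examined, 3 held a library far from the other 3, where chance gives about 1 in 20. Rosa pre-pigment replicate 1 had 11713 transcripts at 1 scaled RPKM or more, against 13027 to 13071 in the other pre-pigment libraries. JC_0097712 was at 8.86 on the log2(scaled RPKM + 1) scale in Rosa pre-pigment replicate 2, against 7.77 to 7.91 in the others, and its log2 change was 6.93 without that library. JC_0066288 was at 0.461 on that scale in Linea larva replicate 3, against 2.94e-05 to 0.0214 in the other larval discs, and all of these values are near 0.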

How the results depend on the processing

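RPKM as deposited gave 1046 transcripts higher and 6452 lower, and 4019 changed in Linea and 3452 in Rosa. It put 29 transcripts under 1 RPKM in all larval discs and at 5 or more in all pre-pigment wings, and 62 the other way. On that scale the difference in transcripts at 1 RPKM or more was -1674 (exact permutation p = 0.02857), and the difference in SD over transcripts reversed to -0.222. With a threshold of 5 scaled RPKM the difference in detected transcripts reversed to 333. A 2-fold minimum gave 774 higher, 218 lower, 423 in Linea and 328 in Rosa. The Linea and Rosa counts were 2384 and 1608 when all 16 libraries were fitted together, and 2759 and 457 with array weights. For transcripts under 1 scaled RPKM at the other stage, 10 or more in place of 5 or more gave 48 in pre-pigment wings and 2 in larval discs.

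Larval discs and pre-pigment wings share only the number 2. Between the stages, deviations of the libraries numbered 2 from their group means correlated at -0.03 in Linea and -0.06 in Rosa. Each group mean includes a partner library whose number differs between the stages. These values therefore cannot decide whether the numbers pair the stages. Within a stage the libraries numbered 2 of the morphs deviated together, at 0.38 in pre-pigment wings and 0.17 in larval discs. With a replicate block, 1044 transcripts were higher and 362 lower, so that 74.3% of calls were higher, 487 changed in Linea and 202 in Rosa. The blocked step over both morphs takes its size from the libraries numbered 2, so it is not separate from the fit on those alone. With only the libraries numbered 2, 778 were higher and 199 lower, and JC_0109807 was at 5.23 (limma adjusted p = 0.052). Without both pre-pigment libraries numbered 1, 728 were lower. For the following values this choice was added after seeing the data: 517 changed in Linea and 314 in Rosa, and 154 and 25 were present at just a single stage. There the detected difference was 174 and the number of transcripts holding 50% of the RPKM differed by -391 (exact permutation p = 0.06667, the smallest that 2 against 4 allow).

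With each library left out in turn, risers ranged from 1174 to 1928, fallers from 753 to 1929, the Linea count from 0 to 2024 and the Rosa count from 311 to 1393. Transcripts under 1 scaled RPKM in larval discs and at 5 or more in pre-pigment wings numbered 93 to 145. Those with the opposite pattern numbered 17 to 28. Leaving out a library relaxes this rule, so these counts could only stay or rise. The detected difference ranged from -275 to 178, the number holding 50% from -426 to -363 and the SD difference from 0.0342 to 0.0939. Of 220 alternative values of the named transcripts, 219 kept direction and call, and 0 reversed. These transcripts were chosen on the same libraries for the largest changes or highest levels, so this says little of other calls. The cause of these shifts was not tested. Unknown depth limits all low values.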
